A study of Mus musculus with 6 samples.

Results

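The small leucine-rich proteoglycans are secreted matrix proteins of fibroblasts, and 8 of their genes, Dcn, Lum, Bgn, Fmod, Ogn, Prelp, Aspn and Podn, were followed here through single cells sorted from murine colon tumors. The members were taken by gene symbol from the count tables of all plates, where they make up 8 of 19069 listed genes. All 8 were listed on 4 plates, and Fmod was absent from the list of the other 2 plates. The cells came from autochthonous tumors induced with azoxymethane and dextran sulfate sodium (AOM/DSS) and were sorted as negative for EPCAM, CD45 and CD31, a depletion that leaves cancer-associated fibroblasts (CAFs) and mural cells. Each genotype had 3 mice and 3 plates, so each of the 6 plates was taken as 1 mouse. The 3 control mice (labelled Zeb1Fib-Ctrl, here FibCtrl) lacked the Col6a1Cre transgene, and the 3 mice with fibroblast deletion (labelled Zeb1Fib-deleted, here FibΔZeb1) carried it. Both groups were homozygous for the floxed Zeb1 allele and were age-matched littermates of both sexes taken at day 84 or at an ethical endpoint, and the label for further treatment is "None" in all of them. Cre is driven by the Col6a1 promoter, and which of the sorted cells had recombined is not given in the sources used here.

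Small leucine-rich proteoglycans share a core of leucine-rich repeats that binds collagen and growth factors. Decorin (Dcn), biglycan (Bgn) and asporin (Aspn) form one group, of which decorin and biglycan carry chondroitin or dermatan sulfate chains. Lumican (Lum), fibromodulin (Fmod) and PRELP (Prelp) form the keratan sulfate group, although PRELP usually carries no such chain. Osteoglycin (Ogn) and podocan (Podn) belong to more distant groups. Decorin and lumican are best known for regulating the width and spacing of collagen fibrils, biglycan also as a matrix signal to innate immune receptors, and asporin as a TGF-β-binding protein of mesenchymal cells.

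The family is clustered in the genome (GRCm38, GENCODE M21). Dcn (chr10:97479609-97518143, plus strand) and Lum (chr10:97565128-97572703, plus strand) lie next to each other, 47.0 kb apart with no protein-coding gene between them. Aspn (chr13:49544443-49567565, plus strand) and Ogn (chr13:49608046-49624501, plus strand) are 40.5 kb apart with 1 coding gene, Omd, between them. Prelp (chr1:133910304-133921414, minus strand) and Fmod (chr1:134037254-134048277, plus strand) are neighbours at a distance of 116 kb. Bgn (chrX:73483602-73495933, plus strand) and Podn (chr4:108014791-108096445, minus strand) stand alone. Of these neighbours Aspn and Ogn, whose levels went opposite ways between mural cells and fibroblasts, are shown with the 250 bases before their RefSeq start (GRCm38.p6, plus strand, chr13:49544193-49544442 for Aspn and chr13:49607765-49608014 for Ogn). Capitals mark matches to the TATA box letters TATAAA or, on the other strand, TTTATA.
Aspn: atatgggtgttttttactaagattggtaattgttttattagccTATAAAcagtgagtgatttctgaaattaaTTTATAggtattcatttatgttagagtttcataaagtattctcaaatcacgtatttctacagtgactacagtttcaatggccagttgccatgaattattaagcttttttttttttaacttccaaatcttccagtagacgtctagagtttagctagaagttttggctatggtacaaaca
Ogn: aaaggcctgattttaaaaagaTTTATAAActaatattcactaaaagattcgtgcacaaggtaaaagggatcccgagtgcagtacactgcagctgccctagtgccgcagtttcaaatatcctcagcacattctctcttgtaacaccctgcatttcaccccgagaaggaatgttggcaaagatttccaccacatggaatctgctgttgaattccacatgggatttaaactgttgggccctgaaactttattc
Both windows held these letters, on both strands, and in Ogn the 2 matches overlap. All of the matches lie nearer the far end of the window than the start of the gene. Whether any of them acts as a TATA box was not tested. The letters were found in 12.4% of the 32851 windows of the same length before all RefSeq starts. The windows of 6 members were in the table (7 windows, as Podn has 2 starts), and Aspn and Ogn were the 2 members with a match. The E-box CACCTG (on the other strand CAGGTG), the sequence that the ZEB1 repressor binds, was found in 1 of the 7 member windows, that of Podn, and in 17.2% of all windows. The Aspn window had a GC content of 30%, that of Ogn 42% and that of Bgn 64.4%, against a median of 52.4% over all windows. Windows for Dcn and Lum were not analysed here.

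The 6 plates hold 2304 wells with 1 sorted cell each, of which 1233 had 100 to 6000 genes and under 10% mitochondrial transcripts, and 928 of these also had at most 1 transcript each of the leukocyte gene Ptprc and of Epcam. By marker genes, none of which is a member, 594 wells were gated as mesenchymal: 158 iCAF-like (Pi16, Ptx3, Sfrp4), 133 Cxcl13/Grem1 fibroblasts, 114 telocyte-like (Wnt5a, Bmp7, Nrg1), 86 pericyte-like (Rgs5, Notch3) and the rest fibroblasts that reached no class, among whose leading genes was the keratin Krt14. A further 429 of the 1233 wells, taken without the limit on Ptprc and Epcam, were neutrophil-like (S100a8, S100a9). They serve as the background, since granulocytes should lack these matrix genes. Median depth was 10903 to 15187 transcripts per well in the 4 classes, but 1567 in neutrophil-like wells. Levels are CPM, the transcripts of a gene over all transcripts of a mouse's summed wells times 1000000, and since the assay counts 1 tag per molecule at the 3′ end, they need no correction for gene length. A class of a mouse was used where it had at least 5 wells, which gave 4 mice for iCAF-like, 5 for Cxcl13/Grem1, 6 for telocyte-like and 3 for pericyte-like wells. FibCtrl mouse 2 and FibΔZeb1 mouse 3 stand apart with 18 and 14 fibroblast wells against 55 to 160 in the others, and the files of the latter carry another flow cell name than those of the other 5 mice. Pericyte-like wells also held smooth muscle markers, summed to 2009 to 2350 CPM against 42.3 to 862 in iCAF-like and telocyte-like wells. Zeb1 in fibroblast wells stood at 113, 118 and 96.7 CPM in FibCtrl and 58.8, 73.8 and 66.7 in FibΔZeb1, with no overlap. By class, Zeb1 did not overlap in iCAF-like wells (165 and 179 CPM in FibCtrl, 75.5 and 83.4 in FibΔZeb1). It overlapped in telocyte-like wells, in Cxcl13/Grem1 wells (means 54.2 and 56.0) and in fibroblasts of no class (means 87.7 and 86.6). By edgeR, 0 of 8559 genes were called between the genotypes in fibroblast wells. The sources used here do not say whether the 3′ tags cover the deleted part of the gene, so the Zeb1 levels are no direct check of the deletion.

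Dcn was the leading member in every fibroblast class. Over all fibroblast wells it reached 16315, 11806 and 7216 CPM in the FibCtrl mice and 12820, 21586 and 17576 in the FibΔZeb1 mice. Together the 8 members took 11891 to 26784 CPM, and Dcn made up 71.6% ± 7.29 of them (SD, n = 6). Bgn followed with 15.6% ± 5.86, Lum with 5.85% ± 1.83, Ogn with 3.84% ± 1.84, Prelp with 1.88% ± 1.02 and Aspn with 0.931% ± 0.240. Podn (0.266% ± 0.128) and Fmod (0.0196% ± 0.0257) were rare. By their levels in fibroblast wells the order was Dcn (14553 ± 5022 CPM), Bgn (2882 ± 671), Lum (1192 ± 508), Ogn (698 ± 148), Prelp (348 ± 137), Aspn (188 ± 68.7), Podn (52.1 ± 31.7) and Fmod (4.57 ± 6.30). From Lum down, the ranges over mice of all neighbours in this order overlapped. Within every mouse, though, Ogn was above Prelp, Aspn above Podn and Podn above Fmod. In FibΔZeb1 mouse 3 Podn rests on 1 transcript. The order of the other neighbours changed between mice. Lum was below Ogn in FibCtrl mouse 3 (427 against 876 CPM), and Prelp was below Aspn in FibΔZeb1 mouse 3 (204 against 263). The ranges were 427 to 1909 for Lum, 528 to 876 for Ogn, 203 to 550 for Prelp, 79.4 to 263 for Aspn, 4.17 to 101 for Podn and 0.0 to 15.4 for Fmod. Dcn and Bgn did not overlap, nor did Bgn and Lum, whose ranges met without crossing at 1909 and 1910 CPM.

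**Figure D1:**
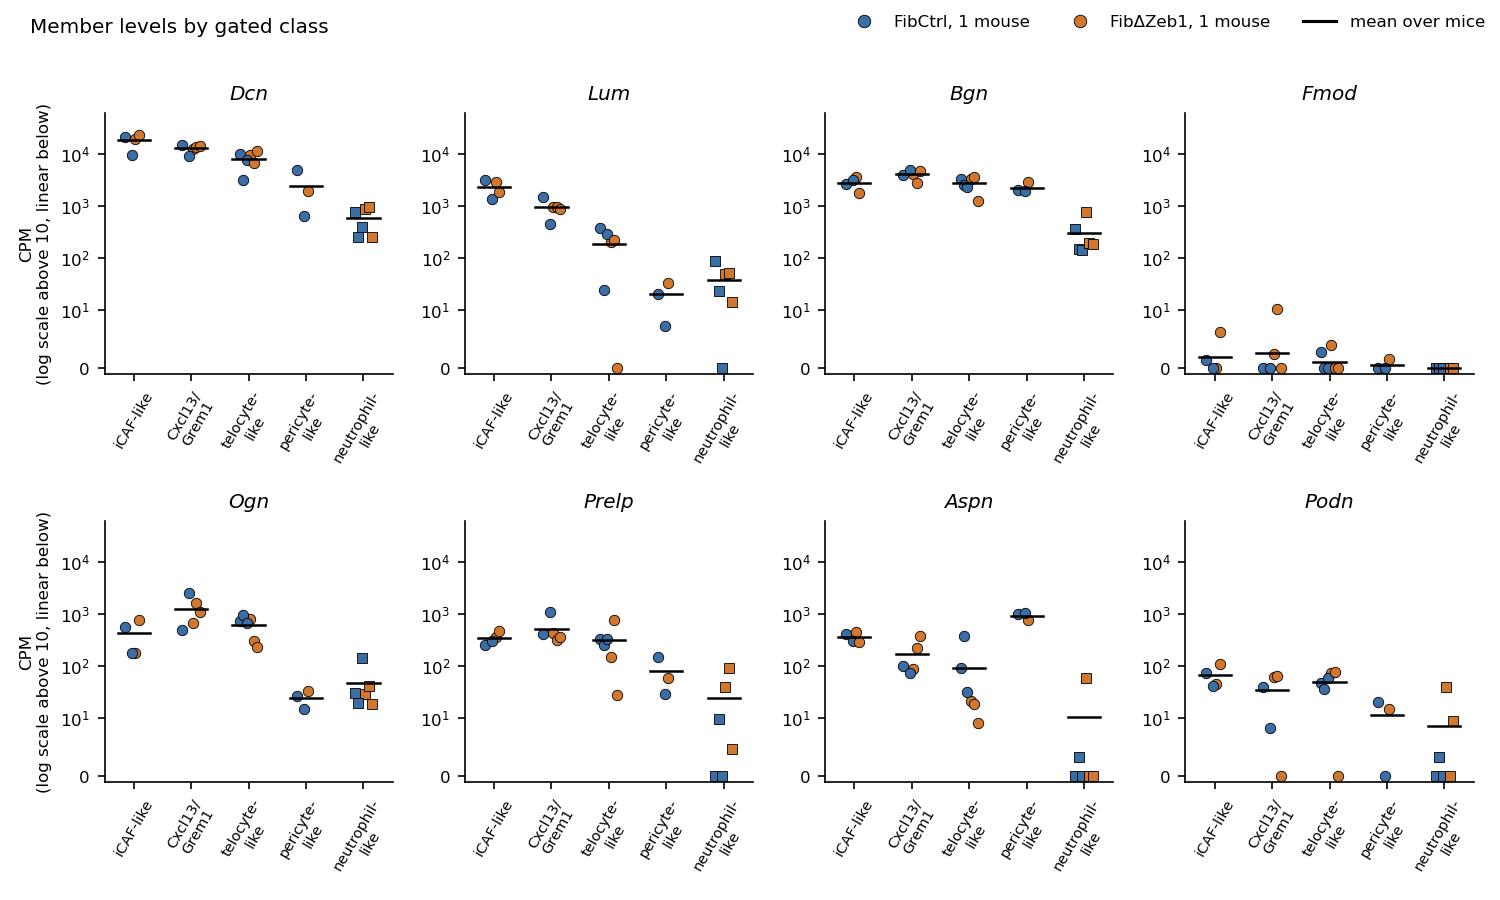
Level of each member in CPM (y axis, logarithmic above 10 and linear below) in the 4 gated classes and in neutrophil-like wells as background (x axis). Each point is 1 mouse (squares in neutrophil-like wells), colored by genotype, and the bar is the mean over mice. Lum falls from iCAF-like to pericyte-like wells, and Aspn is the member with its highest points in pericyte-like wells (745 to 1041 CPM).

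Against the mean of the 3 fibroblast classes, pericyte-like wells had more Aspn and less Dcn, Lum, Ogn, Prelp and Podn. Of the 7 members tested 1 was called higher, where 10.4% of all 8150 genes tested were, and 5 were called lower, where 9.35% of all genes were (edgeR quasi-likelihood test with the mouse as a block, Benjamini-Hochberg adjusted p under 0.05 over all genes). In either direction these were 6 of 7 members against 19.7% of all genes, and DESeq2 also called 6 members (12.7% of genes). Fmod was too low to be tested.

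Aspn stood at 985 and 1041 CPM in pericyte-like wells of FibCtrl mice 1 and 3 and at 745 in FibΔZeb1 mouse 1. Its iCAF-like levels were 403, 303, 451 and 290 CPM (FibCtrl 1 and 3, FibΔZeb1 1 and 2). Every pericyte-like value was above every iCAF-like value, and in each of the 3 mice with both classes Aspn was higher in pericyte-like wells. The difference from the fibroblast classes was 2.90 ± 0.32 on the log2 scale (SE, 7.45-fold, edgeR adjusted p = 1.40e-07). Neutrophil-like wells, the background, had 0.0 to 58.8 CPM. In 3 further mice with only 2 to 4 pericyte-like wells, left out of the fit, Aspn was at 714, 275 and 1200 CPM. It was spread over wells, as 14 of 19, 39 of 46 and 12 of 12 pericyte-like wells held Aspn, and the fullest well gave 14.6 to 24.0% of a mouse's transcripts.

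Lum was the member that was most reduced in mural cells. Pericyte-like wells had 20.2, 32.9 and 7.31 CPM (3, 22 and 1 transcripts), within the 0.0 to 88.9 of neutrophil-like wells. By level, Lum was thus not told apart from background there. The depths are unlike, with a median of 11549 transcripts per pericyte-like well and 1567 per neutrophil-like well. In iCAF-like wells Lum reached 3115, 1322, 2895 and 1849 CPM. The fitted difference between pericyte-like and fibroblast wells was -5.24 ± 0.58 on the log2 scale (37.9-fold lower, edgeR adjusted p = 1.46e-07). Ogn was at 26.9, 32.9 and 14.6 CPM in pericyte-like wells, none above the background of 18.9 to 140, and differed by -4.57 ± 0.64 (23.8-fold lower, adjusted p = 5.58e-06).

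Dcn fell by 2.71 ± 0.32 (6.52-fold lower, edgeR adjusted p = 5.10e-07) but was not lost. Its pericyte-like levels were 4767, 1903 and 623 CPM, in the order FibCtrl 1, FibΔZeb1 1 and FibCtrl 3, against 247 to 952 in neutrophil-like wells. The values spread widely, and the lowest of them lies inside the background range. The fullest well gave 22.3 to 37.7% of a mouse's pericyte-like Dcn transcripts. Prelp (148, 58.4 and 29.3 CPM) fell by 2.34 ± 0.50 and Podn (20.2, 15 and 0.0 CPM) by 2.17 ± 0.47 (edgeR adjusted p = 0.000981 and 0.00127). Podn lost its call without FibΔZeb1 mouse 1 (adjusted p = 0.0641), which holds 46 of the 86 pericyte-like wells.

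Bgn had the smallest difference between mural cells and fibroblasts. Pericyte-like wells had 1975, 2826 and 1890 CPM, and the fibroblast classes had means of 2778 ± 789 (iCAF-like, n = 4), 4036 ± 827 (Cxcl13/Grem1, n = 5) and 2712 ± 894 (telocyte-like, n = 6). The difference of -0.74 ± 0.27 (1.67-fold lower) missed the threshold with edgeR (adjusted p = 0.0553), although Bgn was lower in pericyte-like wells than in each fibroblast class in 3 of 3 mice. Leaving out FibΔZeb1 mouse 2 or mouse 3 brought it past the threshold (adjusted p = 0.0247 and 0.0198). Background in neutrophil-like wells was 140 to 765 CPM.

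**Figure D2:**
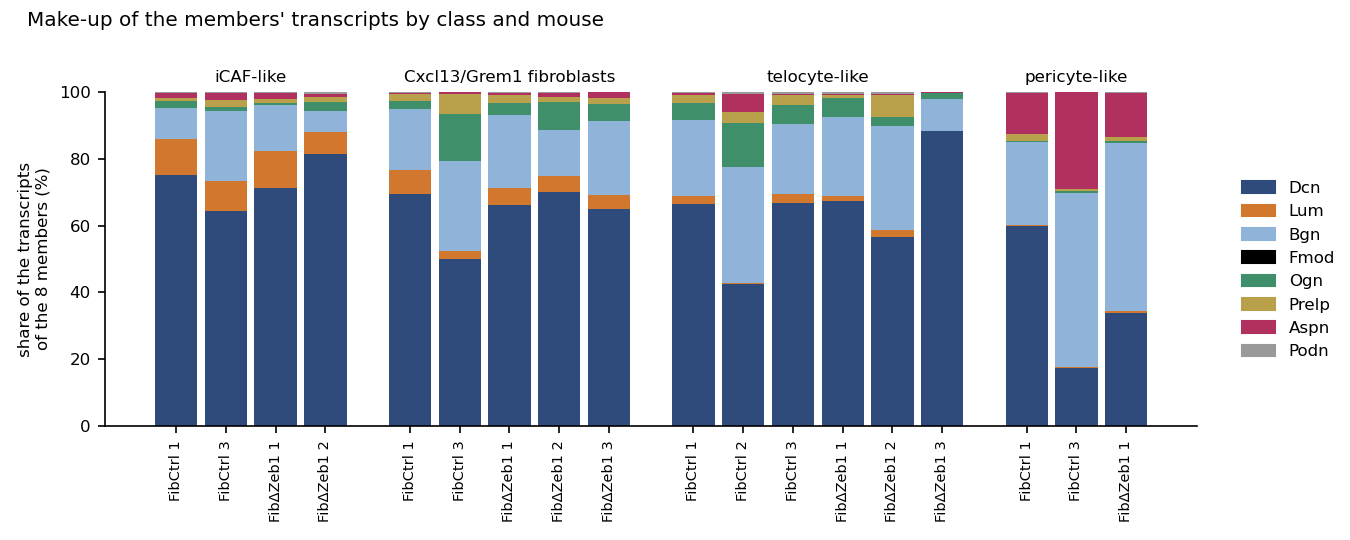
Share of each member in the transcripts of all 8 (y axis, percent) for every mouse with at least 5 wells of a class (x axis, 1 bar per mouse). Dcn takes 42.6 to 88.4% of a bar in the 3 fibroblast classes, while in pericyte-like wells Bgn takes 24.9 to 52.4% and Aspn 12.4 to 28.9%.

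Among fibroblasts, Lum and Aspn were the members that differed most between iCAF-like and telocyte-like wells. By mean level both were highest in iCAF-like wells and lowest in telocyte-like wells. Of the 7 members tested, 3 were called higher in iCAF-like than in telocyte-like wells and none was called lower, where 9.71% and 8.44% of all genes were (edgeR, 8150 genes, 18.1% in either direction). These were Aspn (3.57 ± 0.41, 11.9-fold, adjusted p = 5.26e-07), Lum (3.39 ± 0.40, 10.5-fold, adjusted p = 8.26e-07) and Dcn (1.19 ± 0.28, 2.28-fold, adjusted p = 0.00298). DESeq2 also called 3 members (11.7% of genes). The other 4 tested members had log2 differences from -0.33 to 0.33.

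For Lum the iCAF-like values of 1322 to 3115 CPM did not overlap the telocyte-like values, which were 377, 23.9 and 288 in FibCtrl and 202, 218 and 0.0 in FibΔZeb1. The 0.0 of FibΔZeb1 mouse 3 rests on 6 wells, where a count of 0 allows up to 27.4 CPM. Lum was higher in iCAF-like wells in 4 of 4 mice, and above the neutrophil-like background of 0.0 to 88.9 in 4 of 6 telocyte-like sums.

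Aspn was at 89.4, 383 and 31.6 CPM in telocyte-like wells of FibCtrl and at 21.2, 19.0 and 9.12 in FibΔZeb1. FibCtrl mouse 2 is high, and 84.4% of its 32 Aspn transcripts came from 1 of its 6 telocyte-like wells. The other 5 mice had 9.12 to 89.4, below every iCAF-like value (290 to 451). Without FibCtrl mouse 2 the call held, as it did in each fit that left out 1 mouse, and Aspn was higher in iCAF-like wells in 4 of 4 mice. These sums rest on 1 to 32 Aspn transcripts a mouse, of which the fullest well held at least 37.5%.

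Dcn in iCAF-like wells was at 21210, 9551, 18787 and 23205 CPM, and in telocyte-like wells at 9633, 3063, 7469, 9348, 6551 and 11267. The ranges overlap through FibCtrl mouse 3, which is low in both classes, but within each of 4 mice the iCAF-like value was the higher one. With FibCtrl mice alone Dcn was not called (0.83, adjusted p = 0.292).

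By their means, Cxcl13/Grem1 fibroblasts lay between the other 2 classes for Lum and Dcn and had the most Bgn. Lum was at 1492, 438, 952, 935 and 876 CPM, Bgn at 3866, 4783, 4127, 2723 and 4679, and Ogn at 496, 2484, 675, 1593 and 1059, in the order FibCtrl 1, FibCtrl 3 and FibΔZeb1 1 to 3. In the mice with 50 and 59 wells of this class Ogn was lower than in telocyte-like wells (496 against 736 and 675 against 785 CPM), and in the 3 mice with 5 to 8 such wells it was higher. Against this class, telocyte-like wells had 2 of 7 members called lower (4.15% of all genes were) and none higher (4.02%), with 8.17% called in either direction. DESeq2 called 2 members (5.39% of genes). They were Lum (-2.19 ± 0.39, 4.55-fold lower, edgeR adjusted p = 0.000456) and Aspn (-1.89 ± 0.42, 3.72-fold lower, adjusted p = 0.00383). Lum was lower in telocyte-like wells in 5 of 5 mice and Aspn likewise. The telocyte-like Aspn sums rest on 1 to 32 transcripts. Aspn lost its call with FibCtrl mice alone (-0.64, adjusted p = 0.624), with the stricter gate (-1.54, adjusted p = 0.0991) and where only genes named mt- counted as mitochondrial (-0.13, adjusted p = 0.945). Without FibΔZeb1 mouse 2, Bgn and Prelp were also called lower, which made 4 members.

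iCAF-like against Cxcl13/Grem1 wells gave 1 of 7 members called, Aspn, which was higher by 1.68 ± 0.39 (edgeR adjusted p = 0.00715), where 4.25% of all genes were called higher, 4.15% lower and 8.39% in either direction. DESeq2 called 1 member (5.12% of genes). Aspn in Cxcl13/Grem1 wells was at 97.8, 74.4, 88.8, 223 and 381 CPM, with the 2 highest values in mice of 7 and 5 wells. The call was lost without FibCtrl mouse 1 (adjusted p = 0.0673) and without FibΔZeb1 mouse 1 (adjusted p = 0.187). Lum (1.2 ± 0.40, adjusted p = 0.0621) and Ogn (-1.49 ± 0.48, adjusted p = 0.0553) missed the threshold. Lum was higher in iCAF-like wells in 4 of 4 mice and was called without FibΔZeb1 mouse 3 (1.42, adjusted p = 0.000627). Ogn was lower in 3 of 4 mice and was called without FibCtrl mouse 1 (-2.15, adjusted p = 0.0435) and without FibΔZeb1 mouse 2 (-1.81, adjusted p = 0.0335). Without FibCtrl mouse 3, Dcn was called as well (0.87, adjusted p = 0.0354).

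**Figure D3:**
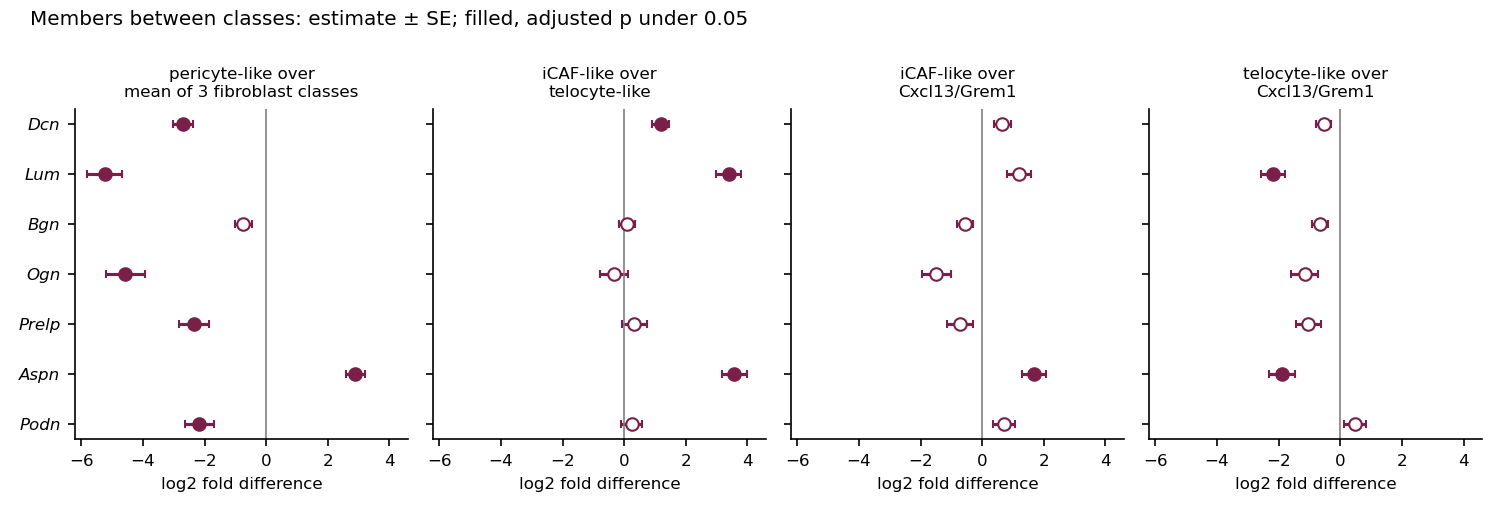
Log2 fold difference (x axis) of the 7 tested members (y axis) in the 4 comparisons of classes, as the edgeR estimate with an SE derived from the F statistic. Filled points passed an adjusted p of 0.05. Aspn is the member to the right of 0 and called in the first panel, and Lum has the largest differences to the left there (-5.24) and, with Aspn, to the right in the second (3.39 and 3.57).

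Prelp and Podn varied among fibroblasts without a call. Prelp had 345 ± 93.8 CPM in iCAF-like wells (n = 4), 516 ± 317 in Cxcl13/Grem1 wells (n = 5) and 308 ± 247 in telocyte-like wells (n = 6). In telocyte-like wells it ranged from 27.4 in FibΔZeb1 mouse 3 to 754 in FibΔZeb1 mouse 2, where 83.6% of the transcripts came from 1 well. Podn was between 41.2 and 109 CPM in iCAF-like wells, 0.0 and 63.6 in Cxcl13/Grem1 wells and 0.0 and 75.8 in telocyte-like wells. Podocan is a repressor of smooth muscle growth in vessels, but its level in pericyte-like wells (0.0 to 20.2) was no higher than in neutrophil-like wells (0.0 to 39.2).

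Ogn was patchy. In telocyte-like wells it was at 736, 948, 658, 785, 304 and 229 CPM, and in iCAF-like wells at 568, 179, 175 and 758. The median iCAF-like well had 3.87 Ogn transcripts per 10000 and the median telocyte-like well 0.615, yet the fullest iCAF-like well held 29.7 per 10000 and the fullest telocyte-like well 103.1. In FibΔZeb1 mouse 3 all 25 telocyte-like Ogn transcripts came from 1 of 6 wells.

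To compare shared and exclusive expression, every well was thinned to 1000 molecular barcodes, which left out 5 of 508 fibroblast wells, 1 of 86 pericyte-like wells and 122 of 429 neutrophil-like wells, so the background shares come from the 307 deeper ones. Intervals are exact 95% binomial ones over wells and cover counting error only. A fibroblast well then held a median of 3 members, 94.6% of wells held at least 2 and no well held more than 6. iCAF-like wells averaged 3.61 members, Cxcl13/Grem1 wells 3.2, telocyte-like wells 2.59 and pericyte-like wells 1.87. Dcn was found in 158 of 158 iCAF-like wells (lower bound 97.7%), 93.0% of telocyte-like wells (86.6 to 96.9) and 51.8% of pericyte-like wells (40.7 to 62.7). Neutrophil-like wells showed Dcn in 31.9% (26.7 to 37.5) at the same depth, below the interval of the pooled pericyte-like share. Over 3 mice, however, the pericyte-like share ranged from 37.0 to 94.4%, and the lowest value lies inside the neutrophil-like interval.

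Lum was found in 81.0% of iCAF-like wells (74.0 to 86.8), 55.6% of Cxcl13/Grem1 wells, 14.9% of telocyte-like wells (8.93 to 22.8) and 4.71% of pericyte-like wells, with 0.651% in neutrophil-like wells (2 of 307). The neutrophil-like share of Lum was 3.23% at 500 barcodes, 4.73% at 2000 and 5.13% without thinning, and at 500 barcodes the pericyte-like share, 1.18%, was below it. At all 3 thinned depths the binomial intervals of the pericyte-like and neutrophil-like shares overlapped, while the telocyte-like share was 11.4% at 500 barcodes and 21.9% at 2000. Without thinning, the pericyte-like share was 15.1% (8.30 to 24.5), above the neutrophil-like interval (3.24 to 7.66). Pericyte-like wells were then the deeper ones. Over mice the share ranged from 67.6 to 94.8% in iCAF-like and from 0.0 to 27.3% in telocyte-like wells. Of fibroblast wells 51.9% held both Lum and Dcn, 44.1% held Dcn without Lum and 0.398% held Lum without Dcn. The product of their shares gives 50.2% for both. Bgn was found in 74.1% of iCAF-like, 93.2% of Cxcl13/Grem1, 89.5% of telocyte-like and 74.1% of pericyte-like wells, and in 19.5% of neutrophil-like wells.

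Aspn was found most often in pericyte-like wells, with 45.9% (35.0 to 57), followed by 25.3% of iCAF-like wells (18.7 to 32.8), 6.14% of telocyte-like wells and 3.01% of Cxcl13/Grem1 wells, against 0.651% of neutrophil-like wells. By mean level telocyte-like wells were instead below Cxcl13/Grem1 wells, and the intervals of these shares overlapped (2.50 to 12.2 and 0.825 to 7.52). Over mice the share ran from 41.3 to 66.7% in pericyte-like and from 0.0 to 29.3% in iCAF-like wells. Of the pericyte-like wells 43.5% held Aspn without Lum and 2.35% held both, and 44.7% held Aspn without its neighbour Ogn and 1.18% held both. In iCAF-like wells 22.8% held Aspn with Lum and 2.53% held Aspn without it. The products of the shares give 2.16% for Aspn with Lum in pericyte-like wells and 20.5% in iCAF-like wells, so both pairs were found together about as often as their shares alone would give. Without thinning the shares rise with depth, to 86% of pericyte-like wells for Aspn and 15.1% for Lum.

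**Figure D4:**
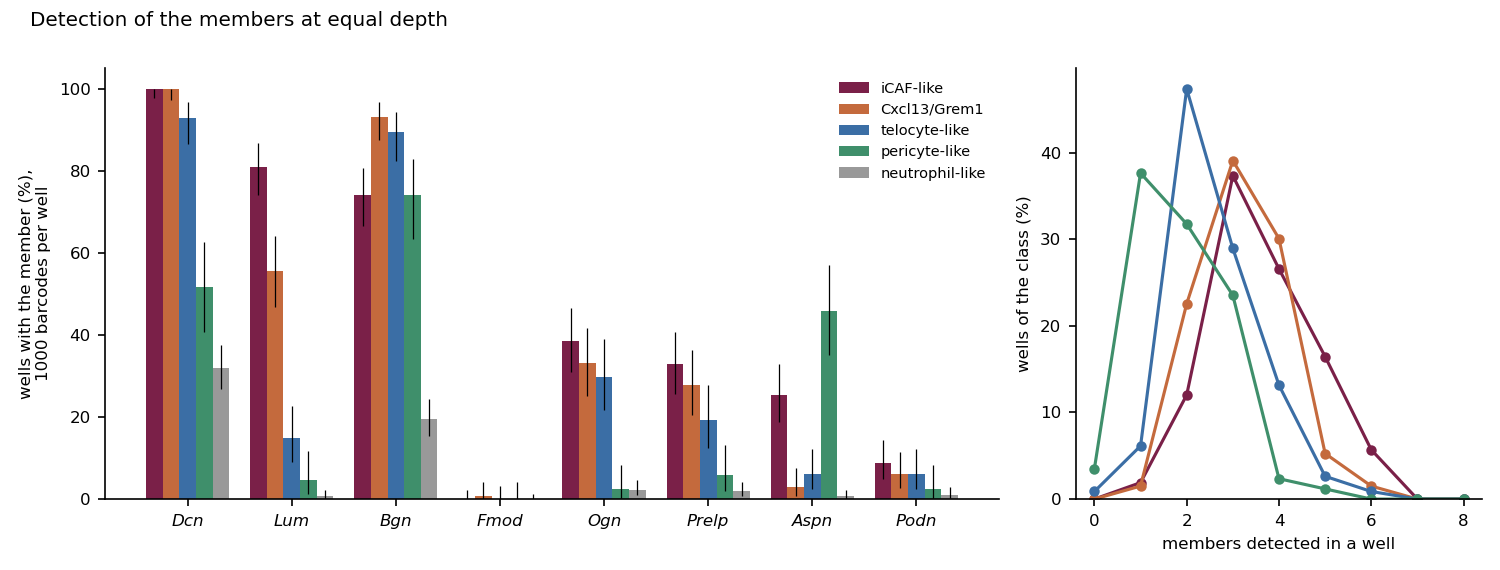
Left, share of wells with at least 1 barcode of each member (y axis, percent) by class after thinning to 1000 barcodes per well, with exact 95% binomial intervals over wells. Right, share of wells (y axis, percent) against the number of members found in them (x axis). The pericyte-like bars exceed all others for Aspn (45.9%), and pericyte-like wells hold the fewest members (1.87 on average).

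Fmod, which shapes collagen fibrils in tendon, was at the limit of detection. It was found in 15 of 508 fibroblast wells, with 42.0 transcripts, and in 0 of 429 neutrophil-like wells, which allows a share of up to 0.699%. Here and elsewhere, the limit for a count of 0 takes 3 wells or 3 transcripts as the upper bound, not the exact binomial interval. Most of these transcripts lay in 7 fibroblast wells that reached no class, and 13.0 in 1 well. The wells came from 3 mice (FibCtrl 1, FibΔZeb1 1 and 2), where Fmod stood at 3.30, 8.72 and 15.4 CPM in fibroblast wells. In the other mice a count of 0 allows up to 4.33 to 12.7 CPM.

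A group of 21 fibroblast wells, all from FibΔZeb1 mouse 2, held both Myoc and Angptl7 and was described apart, with no test, as it comes from 1 mouse. Its summed levels were 31337 CPM for Dcn, 1111 for Prelp, 1211 for Ogn and 31.8 for Fmod, against 19714, 442, 807 and 12.2 in the other 87 fibroblast wells of that mouse. Aspn was at 102 against 237 and Lum at 1142 against 1609.

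Between the genotypes no member differed beyond the spread of the mice. Of the 7 members tested 0 were called in fibroblast wells, where 0.0% of 8559 genes were called, and 0 in all CAF wells, where 0.0% of 9747 were (edgeR, 3 mice per group). All CAF wells are the 928 wells that passed the Ptprc and Epcam filter, of which 594 were gated as mesenchymal. They are thus a mix of cell types, and in FibCtrl mouse 2 only 20 of 110 were mesenchymal. At an unadjusted p under 0.05 there were 0 members and 128 genes (1.5%) in fibroblast wells, and 0 members and 106 genes (1.09%) in all CAF wells. DESeq2 called 0 members and 2 genes (0.0124%) in fibroblast wells, and 0 genes in all CAF wells. In sums over wells, fewer cells of a type and less RNA per cell cannot be told apart, and fibroblasts made up 16.4 to 78.0% of the CAF wells of a mouse.

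Dcn had the largest difference, 0.58 ± 0.37 higher in fibroblast wells of FibΔZeb1 (edgeR, unadjusted p = 0.155, adjusted p = 0.999906). Its values, 7216 to 16315 in FibCtrl and 12820 to 21586 in FibΔZeb1, overlapped. Without 1 mouse the difference ranged from 0.28 to 0.94, and in all CAF wells from 0.046 to 0.90. The others differed by -0.00 (Lum), 0.01 (Ogn), 0.03 (Bgn), 0.16 (Prelp), 0.23 (Aspn) and 0.37 (Podn), with SEs from 0.27 to 0.58. The median of the 7 members was 0.16, and that of all genes tested 0.00. Fmod was at 3.30, 0.0 and 0.0 CPM in FibCtrl and 8.72, 15.4 and 0.0 in FibΔZeb1. Summed, the members took 17116 ± 5397 CPM of fibroblast transcripts in FibCtrl and 22720 ± 3912 in FibΔZeb1 (SD, n = 3), with overlapping values. The share of fibroblast wells with Dcn at 1000 barcodes was 84.3% ± 13.4 in FibCtrl and 99.1% ± 1.6 in FibΔZeb1 (exact two-sided permutation test, p = 0.20, where 0.10 is the smallest p that 3 against 3 mice allow). For the other 7 members the p values were 0.30 to 1.0 by the same exact permutation test.

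Within classes the same members were compared as values only. In iCAF-like wells of 2 mice per genotype, Prelp did not overlap (248 and 302 CPM in FibCtrl, 366 and 466 in FibΔZeb1), while Dcn, Lum, Bgn, Ogn, Aspn and Podn did. In telocyte-like wells of 3 mice per genotype, Aspn did not overlap (31.6 to 383 CPM in FibCtrl, 9.12 to 21.2 in FibΔZeb1), where the sums rest on 1 to 32 transcripts a mouse, and the other 7 members did. In Cxcl13/Grem1 wells all 8 members overlapped. In fibroblast wells that reached no class, with 2 mice per genotype, 2 members did not overlap. These were Ogn (360 and 530 CPM in FibCtrl, 778 and 1335 in FibΔZeb1) and Fmod (0.0 and 17.6, 40.9 and 71.4). The share of all genes without overlap was not counted, and so few mice often separate by chance, so nothing is concluded for the members from these values.

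**Figure D5:**
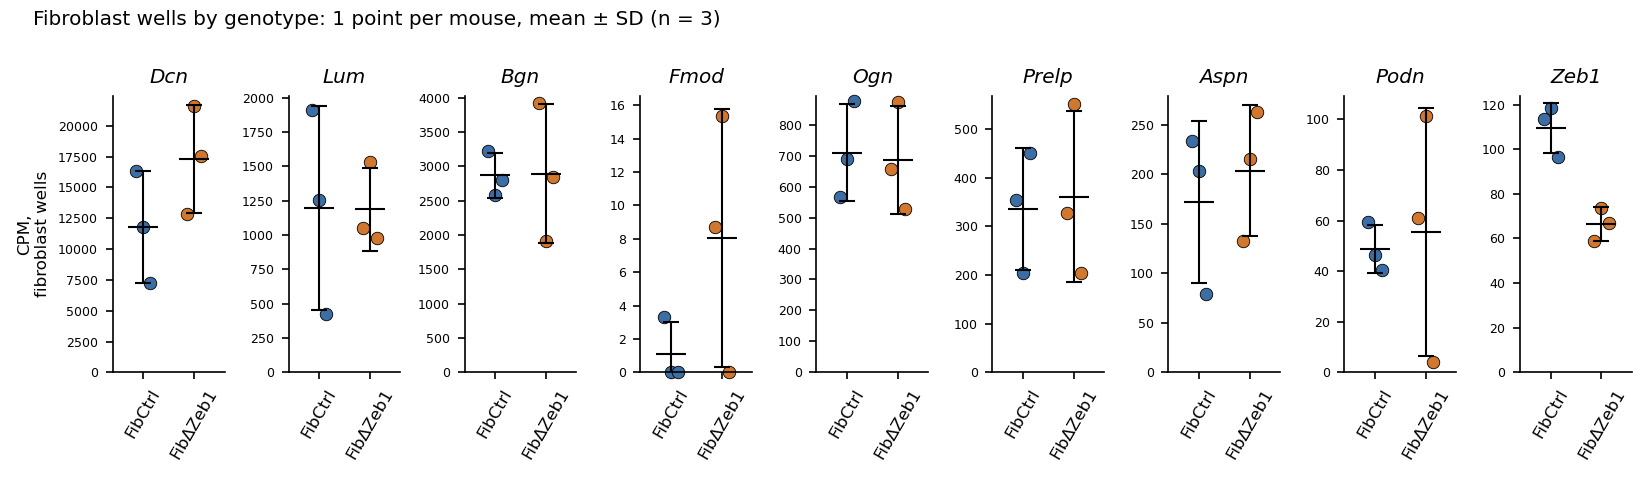
Level in CPM of the 8 members and of Zeb1 in fibroblast wells (y axis, linear, a separate scale for each gene) of FibCtrl and FibΔZeb1 mice (x axis). Each point is 1 mouse, with the mean ± SD (n = 3). The points of the 2 genotypes overlap for all 8 members and not for Zeb1.

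The wider family was sparse. Of 9 relatives, 3 (Ecm2, Tsku and Podnl1) were high enough to be tested. Ecm2, which lies beside Aspn on chromosome 13, was called higher in pericyte-like than in fibroblast wells (1.24 ± 0.30, edgeR adjusted p = 0.00367), in iCAF-like than in telocyte-like wells (2.85 ± 0.36, adjusted p = 1.81e-06) and in iCAF-like than in Cxcl13/Grem1 wells (2.08 ± 0.33, adjusted p = 0.000148). It averaged 116 CPM in iCAF-like, 102 in pericyte-like and 26.7 in telocyte-like wells. Omd, between Aspn and Ogn, was found in 14 of 158 iCAF-like wells and in 0 of 86 pericyte-like wells. Podnl1, a relative of Podn, was found in 28 of 114 telocyte-like wells, 2 of 133 Cxcl13/Grem1 wells and in 0 of 158 iCAF-like and 0 of 86 pericyte-like wells, which allows shares of up to 1.90% and 3.49%. Kera and Epyc, the cornea and cartilage genes that follow Lum on chromosome 10, were found in 5 and 6 of 508 fibroblast wells, and 1 well held 16 of the 35.1 Kera transcripts. Tsku was called higher in iCAF-like than in telocyte-like wells (1.47 ± 0.46, adjusted p = 0.0280). Chad was listed at 0 in all mesenchymal wells, and Optc and Nyx gave 8 and 4 transcripts in fibroblast wells.

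Some genes that build the sulfate chains of these core proteins differed between fibroblast classes. Of 16 tested enzymes of chondroitin and dermatan sulfate, 2 were called higher and 3 lower in iCAF-like than in telocyte-like wells (9.71% and 8.44% of all genes were), with a list median of 0.24 against -0.04 over all genes (edgeR). Chsy3, a chondroitin synthase, was lower (-3.48 ± 0.45, adjusted p = 3.15e-06), as were the sulfotransferases Chst15 (-3.15 ± 0.47, adjusted p = 1.77e-05) and Chst11 (-2.14 ± 0.37, adjusted p = 0.000109), while Chst12 was higher (1.87 ± 0.33, adjusted p = 0.000139). Against Cxcl13/Grem1 wells 1 was called higher and 3 lower in iCAF-like wells (4.25% and 4.15% of all genes), with Chst15 at -2.99 ± 0.47. In pericyte-like wells 2 were called lower, Chsy3 (-2.28 ± 0.59) and Csgalnact1 (-2.13 ± 0.72), and 0 higher, a smaller share of the 16 than the 19.7% of all genes called there. Telocyte-like against Cxcl13/Grem1 wells gave 0 calls by edgeR. For keratan sulfate, 5 enzymes were tested. Chst1, a sulfotransferase of keratan sulfate, was lower in iCAF-like than in telocyte-like wells (-4.12 ± 0.58, adjusted p = 9.93e-06), with means of 3.11 and 92.9 CPM, and the galactosyltransferase B4galt1 was higher (1.53 ± 0.28, adjusted p = 0.000196). Against Cxcl13/Grem1 wells, Chst1 was lower in iCAF-like wells (-2.86 ± 0.65) and higher in telocyte-like wells (1.26 ± 0.38), where B4galt1 was lower (-0.87 ± 0.26). In pericyte-like wells St3gal1 was the 1 enzyme of 5 called (-1.30 ± 0.27), which is near the 19.7% of all genes called there. For the 3 comparisons before it, in the order given, 18.1%, 8.39% and 8.17% of all genes were called in either direction.

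Some fibrillar and associated collagens, the partners of these proteoglycans, differed between the classes. In pericyte-like wells 1 of 8 tested was called higher, Col5a3 (2.61 ± 0.28, edgeR adjusted p = 1.20e-07), and 3 lower, Col14a1 (-2.99 ± 0.48), Col1a2 (-1.36 ± 0.31) and Col3a1 (-1.13 ± 0.27), of which the last 2 are gating markers of all mesenchymal wells (10.4% of all genes were called higher and 9.35% lower). Col14a1, a fibril-associated collagen, was 4.67 ± 0.42 higher in iCAF-like than in telocyte-like wells (adjusted p = 1.69e-08) and averaged 1084 against 44.3 CPM, the order that Lum showed. Col12a1, its relative, ran the other way (-3.47 ± 0.40, 46 against 728 CPM), as did Col5a3 (-1.59 ± 0.36). Against Cxcl13/Grem1 wells, Col14a1 was higher (1.97 ± 0.39) and Col12a1 lower (-2.0 ± 0.40) in iCAF-like wells, while in telocyte-like wells Col14a1 was lower (-2.70 ± 0.40) and Col5a3 (1.79 ± 0.33) and Col12a1 (1.48 ± 0.32) were higher.

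Of 16 tested growth factors, receptors and proteases that act on these proteoglycans, 5 were called higher and 7 lower in pericyte-like wells, 6 higher and 3 lower in iCAF-like against telocyte-like wells, 5 and 1 in iCAF-like against Cxcl13/Grem1 wells and 2 and 2 in telocyte-like against Cxcl13/Grem1 wells. In the same order 19.7%, 18.1%, 8.39% and 8.17% of all genes were called in either direction. Mmp13, a collagenase, ranged from 11.9 to 12052 CPM in telocyte-like wells and averaged 142 in pericyte-like, 3.54 in Cxcl13/Grem1 and 0.720 in iCAF-like wells. Pcolce2, an enhancer of procollagen processing, averaged 257 CPM in iCAF-like wells and 2.24 in telocyte-like wells and was at 0.0 in pericyte-like wells. Adamts5, an aggrecanase, was higher in iCAF-like than in telocyte-like wells (3.08 ± 0.47, edgeR adjusted p = 2.57e-05), and so was Tgfb3, a ligand that decorin and asporin can bind (3.04 ± 0.44, adjusted p = 1.51e-05). Igf1r, a decorin-binding receptor, was lower in iCAF-like than in Cxcl13/Grem1 wells (-1.34 ± 0.25, adjusted p = 0.000942). Wisp1 was higher (2.54 ± 0.33) and Adamts1 lower (-1.06 ± 0.33) in telocyte-like than in Cxcl13/Grem1 wells.

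Other proteoglycans were also tested, 16 of 21. In pericyte-like wells 4 were called higher and 6 lower, in iCAF-like against telocyte-like wells 5 and 5, in iCAF-like against Cxcl13/Grem1 wells 2 and 6, and in telocyte-like against Cxcl13/Grem1 wells 1 and 3, beside the same 19.7%, 18.1%, 8.39% and 8.17% of all genes in either direction. Tgfbr3 (betaglycan) was lower in pericyte-like wells (-2.82 ± 0.47, edgeR adjusted p = 6.07e-05), and Agrn, the basement membrane proteoglycan agrin, was higher (2.60 ± 0.29, adjusted p = 1.54e-07). Gpc1, a glypican, was lower in iCAF-like than in telocyte-like wells (-3.40 ± 0.41, adjusted p = 1.09e-06), while Gpc3 averaged 113 CPM in iCAF-like and 0.0 in telocyte-like wells. Sdc3 was lower in iCAF-like than in Cxcl13/Grem1 wells (-3.73 ± 0.43). In the genotype comparisons 0 genes of these 6 lists were called, by edgeR, as among all genes.

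Over the 18 sums of mouse and class, the genes whose log2 level ran most like each of 6 members, of 6038 compared, were found by Pearson's r, as a description. Sums of 1 mouse share their plate, and the classes fix most of the variation. For Dcn they were Nfix (0.93), Lpar1 (0.90) and Pcsk5 (0.89), and for Lum Loxl1 (0.94), Clec3b (0.92, a gating marker) and Sqrdl (0.92). For Aspn they were Sparcl1 (0.93), Rhbdf1 (0.83) and Adamts1 (0.81), for Ogn Efemp1 (0.92, a gating marker), Fbln5 (0.90) and Svep1 (0.90), for Bgn Vcan (0.83), Cpq (0.83) and Ggh (0.82), and for Prelp Sfrp1 (0.87), Abi3bp (0.86) and Chl1 (0.86). Among the members themselves, Dcn and Lum (0.77), Lum and Prelp (0.76) and Bgn and Prelp (0.73) ran most alike. Over these sums Aspn ran with none of the members (-0.44 with its neighbour Ogn to 0.07 with Lum). The sums include the pericyte-like ones, where Aspn was high and Lum low. Among the fibroblast classes alone, the mean levels of Aspn and Lum had the same order.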

How the data were processed

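CAFs of 6 mice were sorted into 384-well plates and sequenced by SORT-seq, which counts molecular barcodes at the 3′ end of transcripts. Per the labels and the study's methods, read 2 was mapped by the authors with BWA on GRCm38 transcripts, and they deposited whole-number counts of barcodes and expected counts of transcripts, that is, barcode counts corrected for barcodes used more than once. The submitters' processing notes also name Cell Ranger 2.1.1. The deposited tables list no gene at 0 in every well of a plate, so an unlisted gene was set to 0. Spike-ins were left out. No cell barcodes are given, only well positions, so shared barcodes between libraries could not be counted. No doublet caller was run, since each well received 1 sorted cell and wells above 6000 genes were left out.

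Wells had 100 to 6000 genes, under 10% mitochondrial transcripts (all genes of the mitochondrial chromosome) and at most 1 rounded transcript each of Ptprc and Epcam. For neutrophil-like wells the limit on Ptprc and Epcam was not applied. These were wells outside the mesenchymal gate with at least 3 neutrophil markers and more of them than of fibroblast markers. A well was mesenchymal with at least 6 of 10 fibroblast markers, with fewer than 0.67 times as many markers of any other type and fewer than 3 glia markers, and took the class with the highest mean z-score of its markers (above 0.25, with at least 3 markers found). A stricter gate, as an alternative, asked for a score above 0.5, at least 4 markers and a lead of 0.2 over the next class. The members, the lists and the markers were chosen with earlier results of these data known, and the thresholds of the gate were set after seeing the data. The gate was tightened once, from 4 fibroblast markers to 6 and from a ratio of 1 to 0.67, after keratin genes and S100a9 were seen to lead the wells of no class.

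Transcripts were summed per mouse, or per mouse and class, rounded, and tested with edgeR 4.0.16 (quasi-likelihood, TMM, filterByExpr, R 4.3.3) over all genes, with the mouse as a block between classes, and with DESeq2 1.42.0 as an alternative. Each plate was taken as a separate mouse, which no label states. Named genes are the members, Zeb1, up to 4 genes of largest change per list and class comparison, and the 3 genes most like each member, which for Podn are not reported here. Every relative was named. Plate totals were 1575730 to 3699060 transcripts, and median depth in fibroblast wells was 7921 to 16358. Scripts were tested on simulated data.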

Additional observations from a re-analysis of the deposited data

Results flagged for a closer look

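Of 24 groups of 4 to 6 mice examined for a value far from the others, 3 held one, and chance alone flags about 1 in 20 such groups. Aspn in telocyte-like wells of FibCtrl mouse 2 was at 383 CPM against 9.12 to 89.4 in the other 5 mice. Prelp in Cxcl13/Grem1 wells of FibCtrl mouse 3 was at 1076 CPM (130 transcripts, 8 wells) against 307 to 435 in the other 4 mice. Fmod in Cxcl13/Grem1 wells of FibΔZeb1 mouse 2 was at 10.6 CPM against 0.0 to 2.37, which is 1 transcript in 7 wells.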

How the results depend on the processing

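In the class comparisons 454 alternative values for members kept their direction and their side of the threshold, 24 gained a call, 15 lost one and 11 changed sign, and in the genotype comparisons 163 kept both and 33 changed sign, with 0 members called in any. No paired analysis was possible because the replicate numbers of the genotypes only name mice. Leaving out FibCtrl mouse 2 and FibΔZeb1 mouse 3 together was chosen after seeing the data. For iCAF-like against Cxcl13/Grem1 wells the 1 member called became 2 with RLE factors, 4 with no filter on low counts, 2 with mt- genes alone as mitochondrial, 2 with at least 10 wells per sum, 2 with FibCtrl mice only, 2 without both mice, 0 with FibΔZeb1 mice only and 0 with no block for the mouse, and 0 to 2 without 1 mouse. For telocyte-like against Cxcl13/Grem1 wells the 2 called became 4 with no filter and 1 each with mt- genes alone (where Aspn stood at -0.13), the stricter gate, no block for the mouse and FibCtrl mice only, and 2 to 4 without 1 mouse. Causes were not tested.

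Signs changed for these differences. Bgn between iCAF-like and telocyte-like wells was -0.073 with mt- genes alone, -0.47 with the stricter gate, -0.0032 with FibΔZeb1 mice only and -0.048 without both mice, Prelp -0.12 with FibCtrl mice only, and Ogn between telocyte-like and Cxcl13/Grem1 wells, -1.16 with the settings of the report and not called, 0.32 with at least 10 wells. By genotype in fibroblast wells Lum was 0.0011 with barcode counts, 0.023 with no Ptprc and Epcam exclusion and 0.15 without both mice, Bgn -0.0050 without both mice and Aspn -0.058 with no exclusion. In all CAF wells Aspn was -0.19 with no exclusion and -0.17 without both mice. Shares of wells differed, FibΔZeb1 minus FibCtrl, by 11.3 (500 barcodes), 0.914 (2000) and 2.34 (not thinned) percentage points for Lum, 2.55 for Bgn and -1.08 for Prelp (500), and -0.822 for Aspn and 1.70 for Podn (2000).

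Without 1 mouse, genotype differences in all CAF wells ranged from -0.69 to 0.52 (Lum), -0.43 to 0.23 (Bgn), -0.32 to 0.069 (Ogn), -0.36 to 0.30 (Prelp), -0.14 to 0.35 (Aspn) and -0.41 to 0.45 (Podn), and in fibroblast wells from -0.43 to 0.58, -0.26 to 0.23, -0.25 to 0.19, -0.32 to 0.45, -0.16 to 0.62 and -0.23 to 0.74 in the same order. Between iCAF-like and telocyte-like wells Bgn ranged from -0.051 to 0.38, Ogn from -0.84 to 0.15, Prelp from -0.060 to 0.59 and Podn from -0.17 to 0.43. The genotype difference in the share of fibroblast wells ranged without 1 mouse from -13.4 to 11.1 points for Lum, -9.62 to 6.71 for Bgn and -4.30 to 13.6 for Prelp. In pericyte-like wells no level of Lum, Ogn or Podn was above the range of neutrophil-like wells, and Fmod was at the limit of detection. Whether depth sets these low values was not tested.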
